A study of Mus musculus with 24 samples.

Results

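The opioid system was described through 7 genes: the peptide precursor genes Penk, Pdyn and Pnoc, and the receptor genes Oprm1, Oprd1, Oprk1 and Oprl1. Its members were all probe sets, the groups of short probes that measure a transcript on an Affymetrix array, that the platform annotation assigns to exactly 1 of these symbols. That gave 13 probe sets out of 45037 that are not controls, and 7 genes out of 18193 with such a probe set. Penk, Pdyn, Pnoc and Oprd1 had 1 probe set each, Oprk1 had 2, Oprl1 had 3 and Oprm1 had 4.

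RNA came from brain tissue of mice descended from a cross of C57BL/6J with A/J and selected for contextual fear, the freezing shown in a place once paired with a shock. The 24 arrays form 4 groups of 6: hippocampus low freezing, hippocampus high freezing, amygdala low freezing and amygdala high freezing. Age, sex, generation of selection, time of dissection and the number of animals behind an array are not given in the sources used here. All groups share the parental strains, and p-values measure the spread between arrays, which may be technical.

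Opioid peptides are cut from larger precursor proteins and act on receptors coupled to inhibitory G proteins, which lower cyclic AMP, open potassium channels and close calcium channels. Enkephalins, from Penk, act mainly on the delta and mu receptors (Oprd1 and Oprm1), dynorphins, from Pdyn, mainly on the kappa receptor (Oprk1), and nociceptin, from Pnoc, on its own receptor (Oprl1). Penk and Pdyn are well known from striatal projection neurons, Penk also from the central and intercalated amygdala, and Pdyn from granule cells of the dentate gyrus.

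Intensity is given in the deposited linear units, in which array medians lay between 36.9 and 43.6. Differences and folds are on the log2(intensity + 16) scale, which understates changes of dim probe sets, and levels of different probe sets are not compared with each other. Adjusted p-values are from limma with Benjamini-Hochberg adjustment over 27022 probe sets, with 0.05 as the threshold. The dimmest 40% of probe sets, judged by mean log2 level over all arrays, were not tested. Of the 13 opioid probe sets, 8 passed this filter, covering 5 genes; the 4 of Oprm1 and the 1 of Oprd1 did not.

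Amygdala samples held more mRNA for enkephalin and dynorphin precursors and for the kappa receptor than hippocampus samples, and smaller excesses were found for the nociceptin precursor and for 1 probe set of its receptor. Of the 8 tested probe sets, 6 were higher in the amygdala and 2 did not pass. Over all probe sets 51.2% passed in the same comparison and 27.1% were higher and 24.1% lower in the amygdala. In 4 of the 8, those of Penk, Pdyn and Oprk1, the 12 amygdala arrays lay above all 12 hippocampus arrays, as against 13.2% of all tested probe sets whose regions did not overlap. These counts are a description, since a probe set can pass the filter through the region in which it is bright. In dissected tissue, fewer cells of a type and less RNA per cell cannot be told apart.

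**Figure D1:**
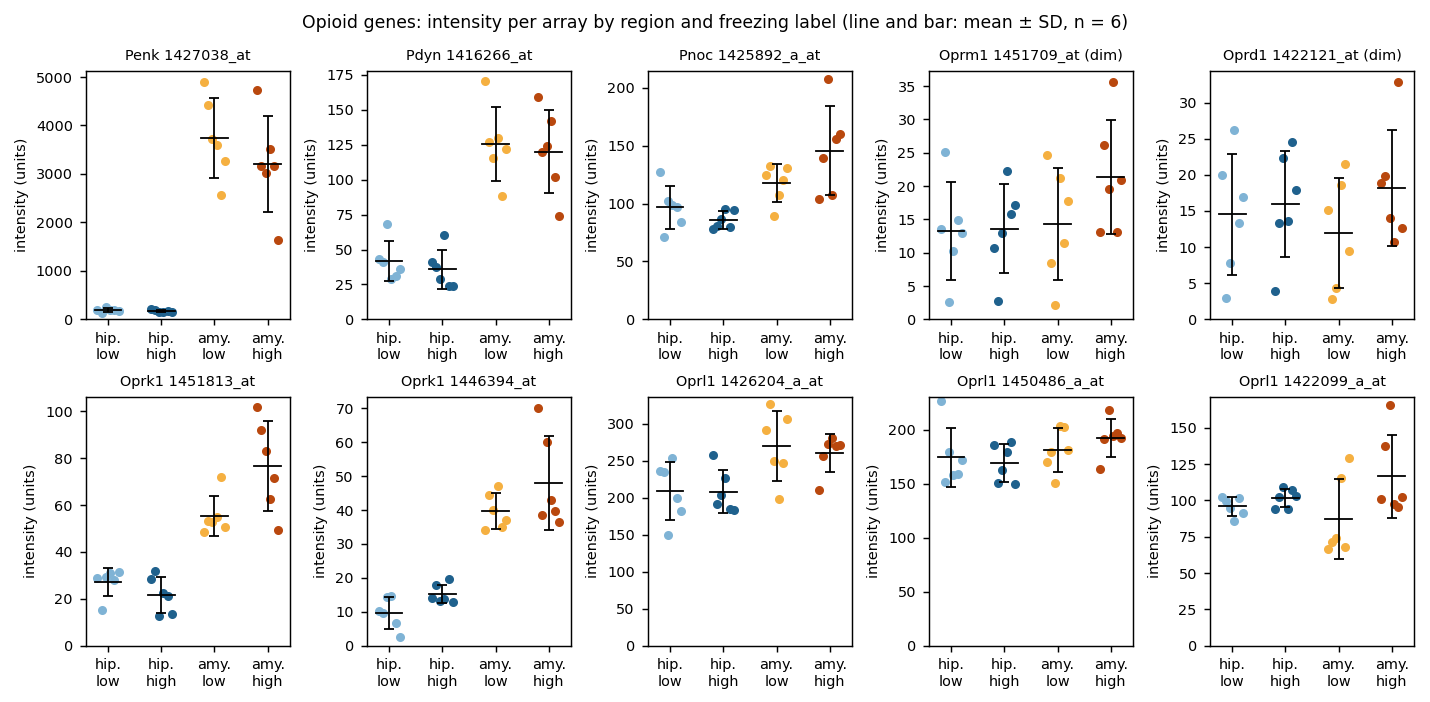
Intensity (deposited units, axes from 0) of each array for the 8 tested opioid probe sets and the brightest dim probe sets of Oprm1 and Oprd1, by hippocampus (hip.) or amygdala (amy.) and low or high freezing; lines and bars are mean ± SD, n = 6. Penk, Pdyn and both Oprk1 probe sets separate the regions completely, and low and high freezing overlap in every panel.

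Penk encodes proenkephalin, the precursor of Met- and Leu-enkephalin. In the hippocampus it ranged from 138 to 259 units with a median of 187 in the low freezing arrays, and from 145 to 209.6 with a median of 159 in the high freezing arrays. In the amygdala it ranged from 2571 to 4894 with a median of 3651 in the low group, and from 1641 to 4738 with a median of 3162 in the high group. Every amygdala array thus exceeded every hippocampus array, while the freezing groups overlapped in both regions. The difference between regions was 4.13 ± 0.12 (SE), a 17.5-fold excess in the amygdala (adjusted p = 2.91e-21), and its size ranked number 2 among the 27022 probe sets. By group mean the order was amygdala low, amygdala high, hippocampus low, hippocampus high, and neighbours within a region did not differ beyond their spread.

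Pdyn encodes prodynorphin. In the hippocampus it ranged from 28.7 to 68.5 units with a median of 38.6 in the low group, and from 24.05 to 60.5 with a median of 33.0 in the high group. In the amygdala it ranged from 88.0 to 171 with a median of 125 in the low group, and from 73.9 to 159 with a median of 122 in the high group. The highest hippocampus arrays, low replicate 3 at 68.5 and high replicate 10 at 60.5, came close to the lowest amygdala array, high replicate 12 at 73.9, without reaching it. The amygdala was 2.56-fold higher, a log2 difference of 1.36 ± 0.123 (SE; adjusted p = 1.53e-10). With an offset of 64 units in place of 16 the difference was 0.86, and with an offset of 1 it was 1.68.

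Pnoc encodes the precursor of nociceptin. Its levels in the hippocampus were 71.1 to 127 units with a median of 98.0 in the low group, and 77.7 to 95.6 with a median of 83.4 in the high group. In the amygdala they were 89.1 to 132 with a median of 123 in the low group, and 104 to 208 with a median of 148 in the high group. The regions overlapped: 6 of 12 amygdala arrays lay above the whole hippocampus range. The amygdala was 1.36-fold higher, with a log2 difference of 0.45 ± 0.0922 (SE; adjusted p = 0.000167).

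Among the receptors, Oprk1, which binds dynorphins, was higher in the amygdala at its brighter probe set, 1451813_at. This probe set ranged from 15.2 to 31.4 units with a median of 29.0 in the low freezing hippocampus, and from 12.8 to 31.8 with a median of 21.8 in the high group. In the amygdala it ranged from 48.5 to 72.1 with a median of 53.1 in the low group, and from 49.4 to 102 with a median of 77.4 in the high group. No amygdala array fell into the hippocampus range. The difference was 1.01 ± 0.107 (SE), or 2.02-fold (adjusted p = 2.97e-09), and 0.55 with an offset of 64 units.

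The other Oprk1 probe set, 1446394_at, stood at 12.4 ± 4.68 units in the hippocampus and 43.8 ± 10.9 in the amygdala (SD, n = 12 each), again without overlap. Its hippocampus mean lies below 23.3 units, the lowest mean over all arrays of any tested probe set. It therefore entered the test through its amygdala values, so its regional difference is a description and adds no support to that of 1451813_at.

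Oprl1, the nociceptin receptor, passed the threshold at its brightest probe set only, and whether its probe sets differ from each other was not tested. At the brightest, 1426204_a_at, hippocampus arrays ranged from 149 to 254 units with a median of 217 in the low group, and from 183 to 258 with a median of 198 in the high group. Amygdala arrays ranged from 198 to 327 with a median of 271 in the low group, and from 211 to 281 with a median of 270.5 in the high group. Here 7 of 12 amygdala arrays lay above the hippocampus range, and the amygdala was 1.25-fold higher (log2 difference 0.33 ± 0.0818, SE; adjusted p = 0.00129). At 1450486_a_at the difference was 0.11, with a 95% interval from -0.02 to 0.25 (adjusted p = 0.147). At 1422099_a_at the difference was -0.001, with an interval from -0.19 to 0.19 (adjusted p = 0.996). After group means were removed, the 3 pairs of Oprl1 probe sets correlated over 24 arrays with Pearson's r between -0.124 and 0.276 (Spearman's rho between -0.0922 and 0.229). The lowest permutation p was 0.191 for r and 0.28 for rho, and the adjusted p over 4 pairs of probe sets was 0.382 and 0.559. The 2 Oprk1 probe sets gave r = 0.317 and rho = 0.303 (permutation p = 0.132 and 0.151, adjusted p = 0.382 and 0.559). Without the 2 arrays farthest from the median, r was 0.319 for Oprk1 and between -0.387 and 0.309 for Oprl1.

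Oprm1 and Oprd1, the mu and delta receptors that enkephalins act on, were dim in both regions. The 4 Oprm1 probe sets had means over all arrays from 2.68 to 15.6 units, placing them between the 2.22th and 31.0th percentile of all probe sets. The brightest of them, 1451709_at, ranged from 2.65 to 25.2 units in the hippocampus and from 2.17 to 35.7 in the amygdala (n = 12 each). The Oprd1 probe set ranged from 2.99 to 26.2 units in the hippocampus and from 2.78 to 32.9 in the amygdala, with a mean of 15.2 at the 30.3th percentile. The regions overlapped at all 5 probe sets. At Oprm1 1425432_at, 4 of 12 amygdala arrays lay above the hippocampus maximum of 9.62 units, and at 1459402_at 3 of 12 hippocampus arrays lay above the amygdala maximum of 4.30. Tested without the filter, none of these 5 probe sets passed in the region comparison; the lowest adjusted p was 0.149, and the 95% intervals of the log2 difference ran from -0.37 at the lowest to 0.49 at the highest. Whether these receptors are present cannot be read from signals this dim.

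**Figure D2:**
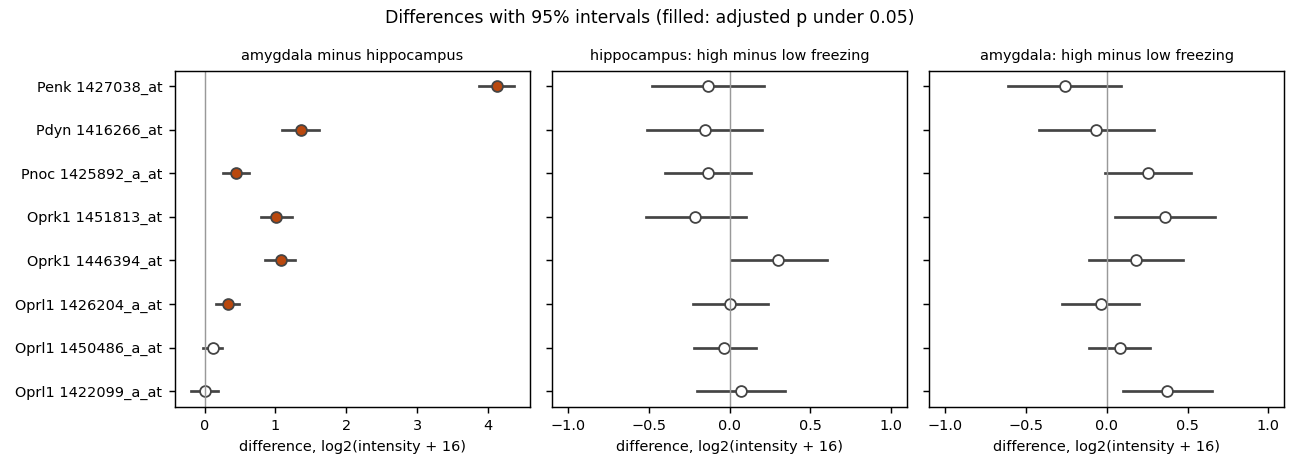
Differences on the log2(intensity + 16) scale with 95% intervals for the 8 tested opioid probe sets: amygdala minus hippocampus, and high minus low freezing in each region; filled points passed the limma threshold. In the regional panel 6 points are filled, Penk at 4.13 far to the right, and in the freezing panels none is.

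High and low freezing groups were then compared within each region. In the hippocampus 0 of the 8 probe sets passed in limma, where 0.0518% of all probe sets did, and 1 had an unadjusted p under 0.05, where 11.8% of all did. Low and high freezing arrays overlapped at all 8, as against 0.818% of all probe sets whose groups did not overlap. The high minus low differences were -0.14 for Penk, with a 95% interval from -0.48 to 0.21, -0.16 for Pdyn (-0.51 to 0.20) and -0.14 for Pnoc (-0.40 to 0.13). The intervals of all 3 peptide genes included 0. The probe sets of Oprk1 gave opposite signs, -0.21 (-0.52 to 0.10) at 1451813_at and 0.30 (0.01 to 0.60) at the dimmer 1446394_at, where hippocampal levels lay between 2.47 and 19.7 units. The 3 Oprl1 differences lay between -0.03 and 0.07.

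In the amygdala 0 of 8 passed, where 0.0555% of all probe sets did, and 2 had an unadjusted p under 0.05, where 10.7% of all did. The groups overlapped at all 8 here too, beside 0.551% of all probe sets without overlap. Penk was -0.26 in the high relative to the low freezing group, with an interval from -0.61 to 0.09 (adjusted p = 0.63). Without high replicate 12 it was -0.08, and without high replicate 7 it was -0.38. Pdyn was -0.07 (-0.42 to 0.29; adjusted p = 0.94). Pnoc was 0.25 (-0.01 to 0.52; adjusted p = 0.494). Oprk1 was 0.36 (0.05 to 0.67; adjusted p = 0.373) at 1451813_at and 0.18 (-0.11 to 0.47; adjusted p = 0.718) at 1446394_at. At 1451813_at, 5 of 6 low freezing arrays lay between 48.5 and 54.7 units and the other at 72.1, while the high freezing arrays spread from 49.4 to 102, so the groups overlapped.

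Oprl1 had its largest amygdalar difference at its dimmest probe set, 1422099_a_at, at 0.37 (0.10 to 0.65; adjusted p = 0.282). It ranged from 66.6 to 129 units with a median of 72.5 in the low group, and from 95.7 to 166 with a median of 102 in the high group. The brighter Oprl1 probe sets gave -0.04 and 0.08, so the sign was not the same at all its probe sets. Of the dim Oprm1 probe sets, 1425432_at ranged from 2.78 to 6.48 units in the low and from 3.67 to 30.8 in the high group, a difference of 0.51 tested without the filter (adjusted p = 0.288). Array medians were higher in the high freezing amygdala, 42.7 ± 0.79 against 40.98 ± 1.38 units (SD, n = 6). The same held in the hippocampus, with 39.96 ± 1.65 in the high against 37.8 ± 0.744 in the low group. The part of these shifts in the dim signals was not tested.

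The test of whether the freezing difference itself differed between regions called 0 of the 8 opioid probe sets in limma, and 0% of all. An unadjusted p under 0.05 was found for 2 of the 8, where 6.06% of all probe sets had one. These were Oprk1 at 1451813_at, with 0.57 (0.13 to 1.01; adjusted p = 0.772), and Pnoc, with 0.39 (0.01 to 0.77; adjusted p = 0.824). For Oprk1 the dimmer probe set gave -0.12 (-0.54 to 0.29).

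The samples were checked against cell type markers, in a comparison where 27.1% of all probe sets were higher and 24.1% lower in the amygdala. All 7 dentate granule cell markers were lower in the amygdala, and 5 of 6 markers of CA pyramidal cells were. Of 9 markers of central and intercalated amygdala, 8 were higher in the amygdala. Of 5 measured basolateral markers, 4 were lower in the amygdala. Neurod6, at 1321 units in the hippocampus and 139 in the amygdala, counts in this list and in that of CA pyramidal cells. A level lower than in the hippocampus does not give the share of basolateral tissue. All 5 markers of choroid plexus, which lies outside both structures, were higher in the amygdala, with sums between 13773 and 20182 units against 1869 to 13336 in the hippocampus. Of the 6 tested markers of hypothalamus and thalamus, the amygdala had more of 3 and less of 1. All 4 measured oligodendrocyte markers were higher in the amygdala, with a median difference of 2.36, and so were 5 of 8 markers of GABA neurons, 3 of 4 of astrocytes and 3 of 4 of microglia. Marker counts between regions are a description, since a marker can pass the filter through the region in which it is bright. Tdo2 and Lct, at 9.99 and 9.55 units in the amygdala, passed through their hippocampus values. Avp and Kcne2, at 17.9 and 23.28 units in the hippocampus, passed through their amygdala values. The part of these tissues and cells in the opioid values was not tested.

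Penk, and less firmly Pdyn, moved with markers of striatal projection neurons, cells of the striatum, which borders the amygdala. All 10 measured markers of this list were higher in the amygdala, where 27.1% of all probe sets were. Of the 12 genes listed, 10 had a probe set with 1 symbol. Their summed level ran from 1331 to 1454 units in the low and 1322 to 1667 in the high freezing hippocampus. In the amygdala it ran from 6037 to 8937 in the low and 3613 to 9340 in the high group. Among these markers, Isl1 stood at 2.47 ± 2.84 units in the hippocampus and 271 ± 72.5 in the amygdala (SD, n = 12 each). Its hippocampus mean lies below 23.3 units, the lowest mean over all arrays of any tested probe set. Isl1 thus entered the test through its amygdala values, and its regional difference is a description. In the high freezing amygdala 0 of the 10 differences were above 0, with a median of -0.27, and no marker reached the threshold. Other lists also lay below 0 there without a call: 0 of 4 oligodendrocyte, 0 of 4 astrocyte and 0 of 4 microglia markers were above 0, with medians of -0.10, -0.19 and -0.23. The part of these markers in the regional and freezing values of Penk and Pdyn was not tested. Whether the marker signal came from striatum or from the amygdala itself was not tested either.

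Within the 12 amygdala arrays, with freezing group means removed, Penk rose and fell with the mean log2 level of these markers. Pearson's r was 0.902 and Spearman's rho 0.902 (permutation p = 5e-05 and 0.00017, two-sided; adjusted p = 0.00035 and 0.00119 over 7 genes). Before group means were removed, amygdala low replicate 1 stood at the top, with 4894 units of Penk, and amygdala high replicate 12 at the bottom, with 1641. Without high replicates 9 and 12, the arrays farthest from the median marker level, r was 0.841 (permutation p = 0.00263, adjusted p = 0.0184). Pdyn had r = 0.738 and rho = 0.615 (permutation p = 0.00671 and 0.0373; adjusted p = 0.0235 and 0.113), and without the same arrays r was 0.62 (permutation p = 0.0563, adjusted p = 0.197) and no longer passed. Pnoc ran the other way, with r = -0.596 and rho = -0.587 (permutation p = 0.0406 and 0.0485; adjusted p = 0.0946 and 0.113), which did not pass. The receptor genes had r between -0.143 and 0.344, with adjusted p of at least 0.479 and rho between -0.0769 and 0.0839. The labels give no batch of the arrays, so no value within batches can be given.

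**Figure D3:**
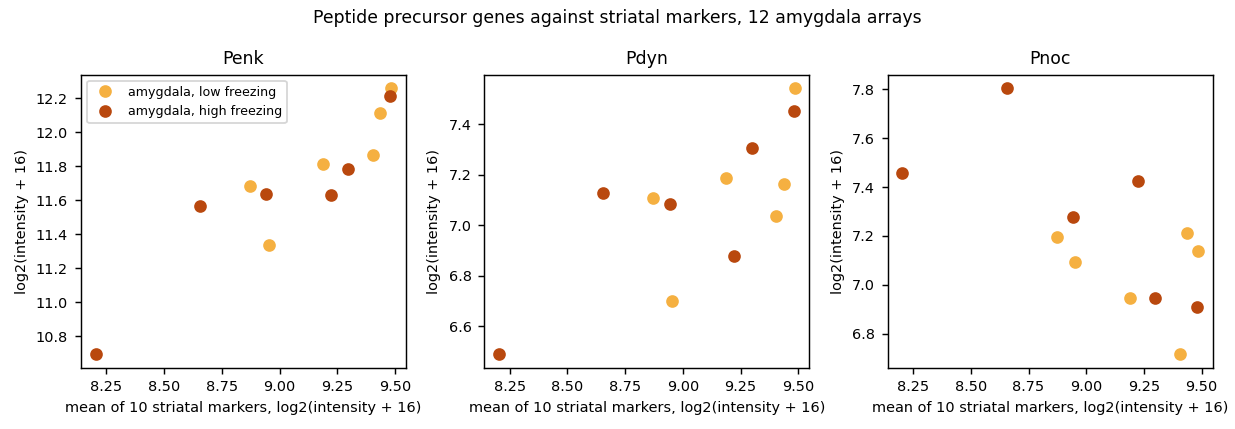
Log2(intensity + 16) of Penk, Pdyn and Pnoc in each of the 12 amygdala arrays against the mean of the 10 striatal projection neuron markers on the same scale, coloured by freezing group. In the values shown, Penk rises with the marker level (r = 0.912), Pdyn more loosely (r = 0.729), and Pnoc tends the other way (r = -0.654). With freezing group means removed, r is 0.902, 0.738 and -0.596.

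Genes with the pattern most like each member were sought among 12467 others, by Pearson's r over the 24 arrays after group means were removed. They are a description, since the genes share arrays and were picked as the highest of many. For Penk they were Phactr1 (r = 0.91), a regulator of actin and protein phosphatase, Ngef (0.886) and Lzts3 (0.872). Within the amygdala these 3 followed Penk with r of 0.95, 0.977 and 0.975, and within the hippocampus with 0.81, 0.526 and 0.392. For Pdyn they were Tsr3 (0.796), Wbp4 (0.789) and Icam5 (0.761). For Pnoc they were Elac1 (0.748), Klhl20 (0.704) and Med7 (0.694). For Oprk1 they were Axin2 (0.784), Magi3 (0.769) and Ctso (0.767), and for Oprl1 Hfe (0.785), Btd (0.728) and Nudt13 (0.725).

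The genes around the receptors were read from lists of opioid peptide processing, degradation, receptor coupling and receptor regulation. Over all probe sets 27.1% were higher and 24.1% lower in the amygdala. Of 7 listed processing genes 6 were measured, and Pcsk2 had no probe set with 1 symbol. Of these 6 measured genes, 1 was higher in the amygdala and 5 did not pass. The one was Ctsl, a protease that can act on proenkephalin, at 1435 ± 135 against 1082 ± 87.0 units (SD, n = 12 each; 1.32-fold, adjusted p = 5.73e-08). Cpe, the carboxypeptidase that trims cut peptides, was at 9781 ± 675 in the amygdala and 10311 ± 1478 in the hippocampus (adjusted p = 0.384). Nearest to the threshold were Pcsk1n, with a difference of 0.16 ± 0.0742 (SE, limma adjusted p = 0.0739), and Scg5, with -0.249 ± 0.118 (adjusted p = 0.0804). Genes that did not pass are not shown to be equal between regions.

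Peptidases that can break peptides down were higher in the amygdala in 4 of 5 tested cases, where 27.1% of all probe sets were higher. Of the 7 listed, Lnpep had no probe set with 1 symbol. Anpep, at 11.0 units in the hippocampus and 15.3 in the amygdala, was too dim to be tested. The amygdala level of Mme, neprilysin, which cuts enkephalins, was 94.97 ± 25.8 units and the hippocampus level 41.4 ± 9.61 (SD, n = 12 for both regions), a 1.91-fold excess in the amygdala. Ace, the angiotensin-converting enzyme, was 2.63-fold higher, Ece2 1.40-fold and Ece1 1.32-fold. All 4 had adjusted p of at most 0.000158. Dpp3 did not pass. The median of the 5 differences was 0.484, beside 0.0161 over all probe sets.

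Of 3 other opioid genes, Pomc, the precursor of beta-endorphin, was 1.40-fold higher (50.5 ± 13.7 against 33.7 ± 17.1 units, adjusted p = 0.00931). Ogfrl1, named for its likeness to the opioid growth factor receptor, was 1.53-fold lower (adjusted p = 2.6e-08), and Ogfr did not pass.

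The 12 measured coupling genes went in both directions, 4 higher and 6 lower in the amygdala, with a median difference of -0.175. Over all probe sets 27.1% were higher and 24.1% lower. Adcy5, the adenylyl cyclase that dominates in striatum, was 3.08-fold higher. The potassium channel genes that opioid receptors open were lower, Kcnj3 2.41-fold and Kcnj6 1.98-fold, as was Cacna1b, the N-type calcium channel, 1.58-fold. Of 9 measured regulators of receptor signalling, 4 were higher and 4 lower. Rgs9, an RGS protein of striatum that shortens opioid signals, was 5.78-fold higher and Rgs4 2.16-fold higher. Rgs14, an RGS protein of CA2 neurons, was 2.16-fold lower, and Grk3, a receptor kinase, was 1.41-fold lower with a difference of -0.50. All 8 genes named for coupling and regulation had adjusted p of at most 8.05e-10. Adcy5 and Rgs9 also stand in the list of striatal markers. In both freezing comparisons and in their difference between regions, 0 of the 35 tested genes of these lists passed in limma.

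**Figure D4:**
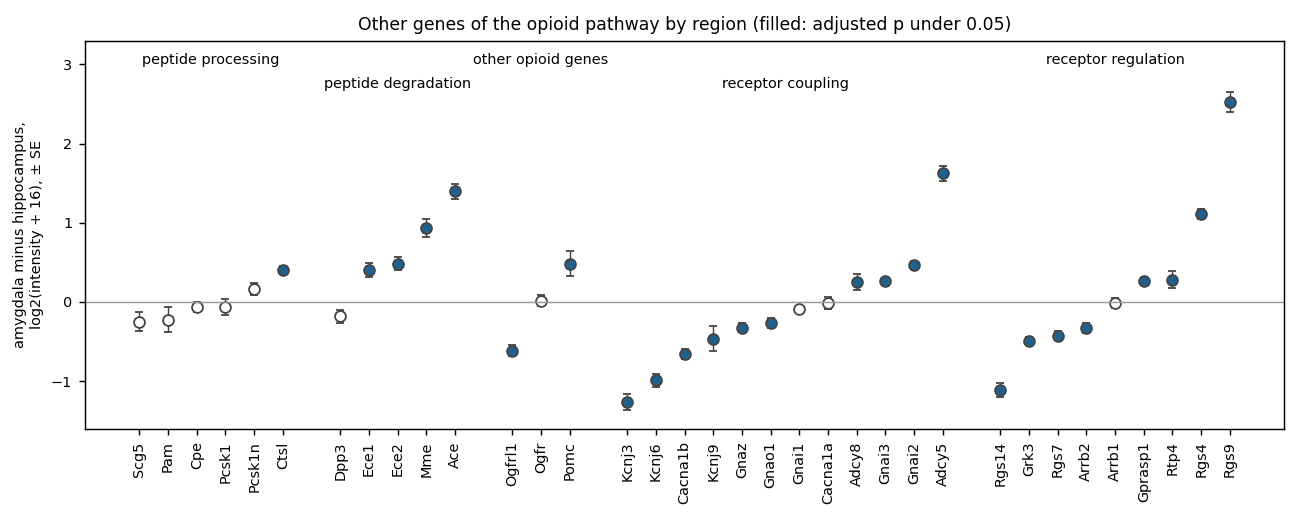
Amygdala minus hippocampus difference of each tested pathway gene on the log2(intensity + 16) scale, ± SE, ordered within its list; filled points passed the limma threshold. Peptidases lie mostly above 0, and processing genes run from Scg5 at -0.249 to Ctsl at 0.4. Coupling and regulation genes lie on both sides, from Kcnj3 at -1.27 to Rgs9 at 2.53.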

How the data were processed

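The authors deposited linear intensity, 1 value per probe set and array. After the highest and lowest 2% were removed, the mean of every array was 150, so the authors' values were already scaled. Which software produced them was not stated in the labels. Array medians spanned 0.172 on the log2(intensity + 16) scale, under the limit of 0.2, and no further normalization was applied. The 64 control probe sets were left out. Symbols are those of the platform annotation, updated through Entrez IDs.

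The 24 arrays entered 1 limma fit (version 3.58.1, R 4.3.3) with a mean for each of the 4 groups; its variance prior followed the intensity, and all tests are two-sided. Permutation tests used 100000 resamples in Python 3.11.15. In simulated data of the hippocampal freezing comparison, 61 of 100 changes of 0.5 and 95 of 100 changes of 1 were recovered among 27022 probe sets, with 2 calls among the unchanged. These rates are not those of the opioid probe sets, where Penk and Pdyn had an SE of 0.17 and 0.174 in this comparison. Arrays have no read depth; their number limits the precision.

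The members, lists and tests were chosen with earlier results of these data known. Named genes are all member probe sets, up to 4 called genes per pathway list by size of the regional difference, the 3 genes most like each member, and markers that a member's result moves with, of which Isl1 was picked after its values were seen. Cpe, Pcsk1n, Scg5, Dpp3, Ogfr, Neurod6, Tdo2, Lct, Avp and Kcne2 are named beyond this rule, after their values were seen. Pcsk2 and Lnpep are named as not measured, and Anpep as too dim to be tested. Alternatives are described at the end; correlations with other marker lists and between probe sets of 1 gene were added after the data were seen.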

Additional observations from a re-analysis of the deposited data

Results flagged for a closer look

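Of 52 sets of 6 arrays, 1 for each opioid probe set and group, 5 held an array whose gap to the nearest other exceeded Dixon's 95% critical value; chance flags about 5% of such sets. For Oprk1 at 1451813_at, hippocampus low replicate 2 stood at 15.2 units, with the others between 28.1 and 31.4, and amygdala low replicate 5 stood at 72.1, with the others between 48.5 and 54.7. For Oprl1 at 1426204_a_at, amygdala high replicate 7 stood at 210.8 units, with the others between 256 and 281. At the dim Oprm1 probe sets, amygdala low replicate 3 stood at 14.8 units against 1.90 to 5.16, and amygdala high replicate 9 at 1.25 against 2.35 to 2.94.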

How the results depend on the processing

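Alternatives were an offset of 1 or 64, quantile normalization, centring on array medians, no filter or the dimmest 60% left out, priors without trend or robust, array weights, each region fitted alone, a replicate block, and each array left out. The regional count of 6 called opioid probe sets ranged from 4, where both Oprk1 probe sets were too dim to be tested, to 7, without hippocampus low replicate 1, where Oprl1 1450486_a_at joined. The freezing and interaction counts were 0 throughout. With the replicate number as a block the regional count was 6. Same-numbered arrays correlated between -0.0791 and 0.0865 and 4 of 12 matched best with their own number, so the numbers were not taken as pairs. The labels do not say whether a shared number marks the same animal, and correlations between different tissues cannot settle it.

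Signs turned only at values that did not pass. Oprl1 in the hippocampus went from 0.002 to -0.054 with centring and -0.023 with array weights. Leaving out 1 array gave ranges of -0.083 to 0.058 for hippocampal and -0.118 to 0.018 for amygdalar Oprl1, -0.151 to 0.047 for amygdalar Pdyn, and, for the interaction, -0.12 to 0.045 for Oprl1, -0.029 to 0.208 for Pdyn and -0.248 to 0.057 for Penk. Of the correlations with striatal markers, 2 passed, and 1 without the 2 farthest arrays, where r went from 0.344 to -0.235 for Oprk1 and from 0.0278 to -0.367 for Oprd1. Without removal of group means Oprd1 had -0.121, and Pnoc passed with -0.654 (permutation test, adjusted p = 0.0496). The cause was not tested. The dim signals of Oprm1, Oprd1 and hippocampal Oprk1 limit what can be read from them.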

Other observations

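Other marker lists were set against the 5 measurable opioid genes within a region, with freezing group means removed, after the data had been seen. Against markers of central and intercalated amygdala in the 12 amygdala arrays, r was 0.112 for Penk and 0.344 for Pdyn (permutation p = 0.734 and 0.273), and rho was -0.042 and 0.315 (permutation p = 0.903 and 0.32). In these tests the lowest adjusted p over the 5 genes was 0.455 for r and 0.358 for rho; without amygdala low replicates 1 and 6, r was -0.0986 and 0.0381. Against dentate granule cell markers in the 12 hippocampus arrays, Pdyn had r = 0.31 and rho = 0.112 (permutation p = 0.327 and 0.731, adjusted p = 0.584 and 0.765), and r = 0.229 without the 2 farthest arrays. Against striatal markers in the hippocampus, Penk had r = -0.216 and rho = -0.126 (permutation p = 0.501 and 0.701, adjusted p = 0.501 and 0.701), and r = 0.0167 without the 2 farthest arrays. None of the relations computed for the 5 genes and these 3 pairings of list and region passed.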
